A study of Arabidopsis thaliana with 15 samples.

Results

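Strigolactones are plant hormones made from carotenoids that limit shoot branching and shape roots and leaves. They are bound by D14, a hydrolase that acts as the receptor. Hormone-bound D14 joins the F-box protein MAX2, and together they mark the repressors SMXL6, SMXL7 and SMXL8 for breakdown. These repressors recruit TOPLESS co-repressors and act on transcription, and their own genes belong to the targets of the pathway. A parallel pathway uses the receptor KAI2, the same MAX2 and the repressors SMAX1 and SMXL2, and answers to karrikins, which are smoke compounds, and to an unidentified internal ligand.

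The early response of whole Arabidopsis thaliana seedlings to a synthetic strigolactone was measured by RNA sequencing. Seedlings were given 5 µM GR24 4DO for 2 h and were set against seedlings given solvent for 2 h. GR24 4DO is a form of the synthetic strigolactone GR24 with the stereochemistry of 4-deoxyorobanchol. All seedlings were wild type of the Col ecotype, 10 days old, taken from plates and kept for 2 h in liquid 0.5× MS medium before treatment. Each group had 3 libraries, out of 15 libraries in the series, in which solvent at 0 h, and both treatments at 4 h, were also sampled. Whether the 3 libraries of a group come from separately grown seedlings is not in the labels, so a p-value speaks only of the spread between libraries, part or all of which may be technical. As whole seedlings were used, fewer cells of a type and less RNA per cell cannot be told apart.

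Genes were taken into the comparison where they reached at least 1 RPKM (reads assigned to a gene, scaled by its length and by the library total) in 3 or more of the 6 libraries of 2 h. This held for 18757 of the 32678 genes in the table. Differences are given as log2 differences of RPKM + 1, GR24 4DO minus solvent, which understate the change of low genes. A gene is called where its limma p, adjusted by Benjamini-Hochberg over all 18757 genes, was under 0.05. Of the genes tested, 70 passed the minimum only through the 3 libraries of 1 group, and 12 of these were called. For such a gene the filter itself keeps the groups apart, so its lack of overlap is no finding. The named genes of this kind are AT5G51500, TPPI, CLE45 and AT4G31620, called higher, and AT3G21460, AT1G29460, SAUR26 and IAA29, called lower.

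Before the values of single genes, some facts of the libraries bear on all of them. The 6 libraries held 24.8 to 37.4 M reads assigned to genes. Solvent replicate 1 stood apart from the other libraries of 2 h, at -23.6 on a first principal component that held 53.8% of the variance, whereas solvent replicates 2 and 3 lay at -5.26 and -4 and the GR24 4DO libraries at 1.26, 20 and 11.6. Solvent replicates 2 and 3 were far closer to each other than most replicate pairs, with a chi-square of their reads of 1.74 per degree of freedom, against 3.82 to 16.99 for the other pairs of 2 h. Summed over 20 root cell markers, levels were 263 to 278 RPKM in the GR24 4DO libraries and 215 to 259 RPKM in the solvent libraries, with the lowest value in solvent replicate 1. Over 15 shoot cell markers the sums were 12300 to 13100 RPKM with GR24 4DO and 13900 to 14200 RPKM with solvent, most of it from the Rubisco small subunit gene RBCS1A. The stem cell genes WUS and CLV3 were at 0 or at 1 read in every library.

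After 2 h, 249 of the 18757 genes (1.33%) were called, 170 higher (0.906%) and 79 lower (0.421%) with GR24 4DO. The changes were small. Among the genes called higher the median fold of mean RPKM was 1.47 and the largest was 3.29, with 17 genes at or past 2-fold and 2 past 3-fold. Among the genes called lower the median was 1.36-fold and the largest 2.84-fold, with 7 genes at or past 2-fold. The largest, AT3G21460, passed the minimum only through solvent, as did AT1G29460, SAUR26 and IAA29 among the 7. AT5G51500, past 3-fold higher, passed it only through GR24 4DO. The 3 and 3 libraries did not overlap in any of the 249 genes, nor did they in 4952 of all genes tested (26.4%), 19.4% with GR24 4DO higher and 6.96% with GR24 4DO lower. The number of calls depended on single libraries and on the near-identical pair. It was 119 without solvent replicate 1, 97 without GR24 4DO replicate 2, 96 without GR24 4DO replicate 3, 130 without solvent replicate 2, and 69 when the close replicate pairs of the series were averaged. It was 1052 with the replicate number as a block over all 15 libraries, although the numbers did not pair the libraries of 4 h consistently. In all, 77 genes, 55 higher and 22 lower, were called in the full set and without any 1 of the 6 libraries. The excess of higher over lower calls depended on scaling: it was 170 to 79 as deposited (68.3% higher), 104 to 102 with median-of-ratios scaling (50.5%), 131 to 155 with quantile normalization (45.8%) and 154 to 174 with gene length trends removed (47%).

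**Figure D1:**
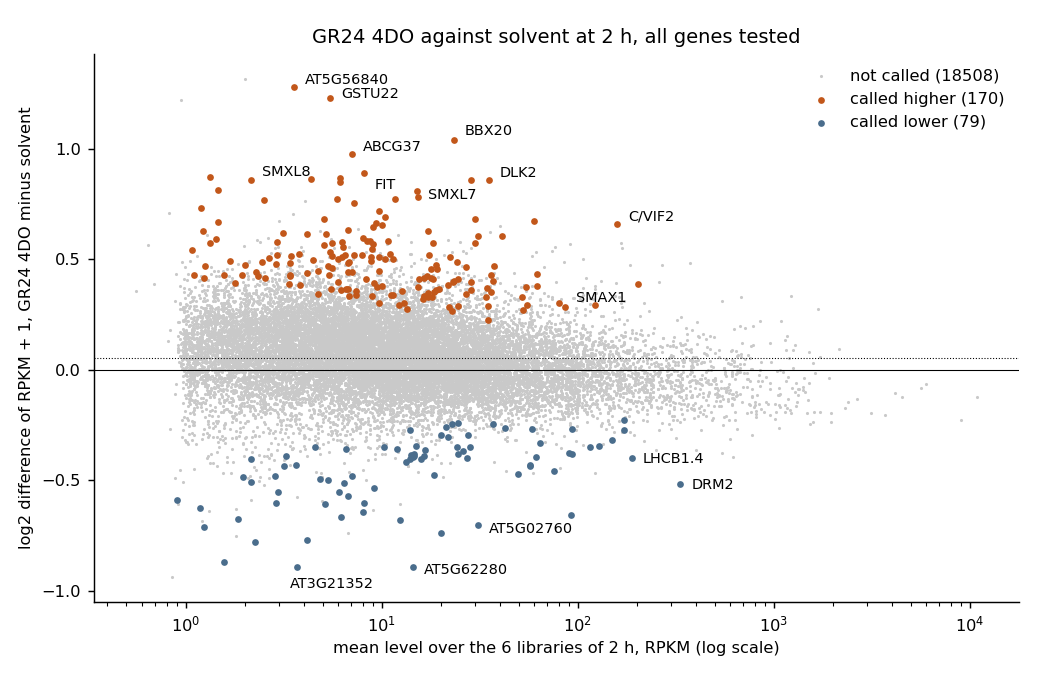
Each point is 1 of the 18757 genes tested, with its mean level over the 6 libraries of 2 h in RPKM on a log axis and its log2 difference of RPKM + 1, GR24 4DO minus solvent. Called genes are coloured, 170 higher and 79 lower, the dotted line is the median of all genes at 0.055, and most called genes lie between 1 and 100 RPKM.

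The strigolactone signalling genes themselves were among the clearest responders. Of 11 members tested, 4 were called higher and 1 lower (45.5%, against 1.33% of all genes). The median log2 difference was 0.12 against 0.055 over all genes, or -0.04 with gene length trends removed. DLK2, a relative of D14 whose transcript is widely used as a marker of strigolactone and karrikin signalling, had the smallest adjusted p of all genes. It stood at 44.3, 44.9 and 48.0 RPKM in GR24 4DO libraries and at 23.2, 26.7 and 24.7 RPKM in solvent libraries, which is 1.84-fold (log2 difference 0.86, SE 0.0645, adjusted p = 8.85e-06). The groups were far apart, and this call held without any 1 library. In solvent seedlings at 0 h the mean was 9.85 ± 0.399 RPKM (SD, n = 3), so DLK2 was higher at 2 h than at 0 h in both groups, and more so with GR24 4DO.

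The promoter windows of 4 genes called higher are shown, since the repressor SMXL6 is known to bind the letters ATAACAA. The 4 are a choice from the signalling lists and not the smallest p. BBX20 and SMXL2, also called higher (adjusted p = 0.00014 and 0.000462), are not printed, and their windows held neither ATAACAA nor ACGTG. Each window shown is the 250 bases before the annotated gene start in the TAIR10.1 reference, 5′ to 3′ on the gene's strand. Capitals mark ATAACAA and ACGTG, the core of the ABA-responsive element, on either strand. The windows are DLK2 at chr3:8865240-8865489 (minus strand), SMXL7 at chr2:12775958-12776207 (plus strand), SMXL8 at chr2:16765459-16765708 (plus strand) and KUF1 at chr1:11222828-11223077 (minus strand).
DLK2: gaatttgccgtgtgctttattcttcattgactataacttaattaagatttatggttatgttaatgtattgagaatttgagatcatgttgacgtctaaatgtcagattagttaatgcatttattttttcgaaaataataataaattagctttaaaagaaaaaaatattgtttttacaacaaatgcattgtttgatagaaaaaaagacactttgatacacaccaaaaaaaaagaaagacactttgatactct
SMXL7: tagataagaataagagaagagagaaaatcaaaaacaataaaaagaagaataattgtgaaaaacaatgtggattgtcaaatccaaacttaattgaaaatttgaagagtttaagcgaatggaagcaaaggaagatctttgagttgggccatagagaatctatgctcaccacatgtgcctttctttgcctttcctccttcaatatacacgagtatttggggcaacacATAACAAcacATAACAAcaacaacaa
SMXL8: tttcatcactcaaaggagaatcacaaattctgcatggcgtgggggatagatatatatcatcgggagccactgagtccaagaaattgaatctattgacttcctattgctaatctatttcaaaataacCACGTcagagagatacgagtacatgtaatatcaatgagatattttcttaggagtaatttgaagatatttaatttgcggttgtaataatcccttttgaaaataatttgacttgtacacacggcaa
KUF1: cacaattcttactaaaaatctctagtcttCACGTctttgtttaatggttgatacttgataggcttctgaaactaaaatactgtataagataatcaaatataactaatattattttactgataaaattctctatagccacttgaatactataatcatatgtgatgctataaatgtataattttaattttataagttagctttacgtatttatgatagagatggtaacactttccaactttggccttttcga

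SMXL7 carried ATAACAA 3 times in the window from 250 bases before to 50 after its start: first bases lay 26 and 16 bases before the start, in capitals above, and 33 bases after it. None of the other called genes of the strigolactone and karrikin lists, DLK2 and D14 included, held these letters in that window. SMXL8 and KUF1 held ACGTG once each. Over 18741 windows of genes tested, ATAACAA was present in 13.2%, against 10.0% of the windows of 170 genes called higher and 6.33% of those of 79 genes called lower. The I-box letters GATAAG, known from light-regulated genes, were present in 25.3% of windows of genes called lower, 13.5% of those called higher and 14.8% of all, and the G-box CACGTG in 13.9%, 7.65% and 8.63%. ACGTG, which overlaps the G-box, was in 35.4% of the windows of genes called lower, 29.4% of those called higher and 27.8% of all. AATATCT, the core of the evening element, was in 21.5%, 15.9% and 11.8%. The other motifs searched on both strands were CACATG (19.0%, 15.3% and 12.7% in the same order), TTGACC (12.7%, 10.6% and 14.4%), TGTCTC (13.9%, 13.5% and 13.5%), TGTCGG (3.8%, 4.71% and 5.7%), GGNCCC (12.7%, 10.0% and 9.86%) and GCCGCC (6.33%, 1.18% and 2.74%). These shares describe letters in reference windows and were not tested.

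The genes of the 3 repressors that D14 and MAX2 remove all rose. SMXL7 had 18.3, 21.1 and 19.6 RPKM with GR24 4DO and 10.6, 11.1 and 10.6 RPKM with solvent (1.82-fold, log2 difference 0.81, SE 0.0868, adjusted p = 0.000141). SMXL8 had 2.87, 3.39 and 2.98 RPKM with GR24 4DO and 1.15, 1.35 and 1.24 RPKM with solvent (2.47-fold, 0.86, SE 0.0942, adjusted p = 0.000156). Neither pair of groups overlapped, and neither call needed any 1 library. SMXL6 had 10.7, 10.2 and 10.4 RPKM with GR24 4DO and 6.91, 7.55 and 6.96 RPKM with solvent (1.46-fold, 0.49, SE 0.106, adjusted p = 0.0304). Its groups did not overlap either, but the call ended without any 1 of the 6 libraries, at adjusted p of 0.0624 to 0.118. In solvent at 0 h, SMXL7, SMXL8 and SMXL6 averaged 9.76, 1.28 and 6.42 RPKM, close to their solvent levels at 2 h.

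The receptor gene D14 moved the other way. It had 60.1, 52.5 and 58.1 RPKM with GR24 4DO and 76.7, 70.7 and 67.8 RPKM with solvent (0.793-fold, log2 difference -0.33, SE 0.0659, adjusted p = 0.0194). The groups did not overlap, but the call ended without GR24 4DO replicate 2 or 3 or solvent replicate 1 or 2, at adjusted p of up to 0.128. D14 averaged 42.2 ± 2.14 RPKM in solvent at 0 h, below both groups of 2 h. MAX2, whose protein works with both D14 and KAI2, was not called, with 18.3, 16.1 and 16.5 RPKM with GR24 4DO and 18.1, 19.2 and 18 RPKM with solvent (adjusted p = 0.431). The log2 differences of the co-repressor genes TPL, TPR1, TPR2, TPR3 and TPR4 lay between 0.08 and 0.15 and none was called, with adjusted p of 0.265 to 0.644. With gene length trends removed all 5 differences were just below 0, from -0.10 to -0.01. TPL, the founding member, had 37.7, 36.8 and 38.1 RPKM with GR24 4DO and 32.2, 37.5 and 36.8 RPKM with solvent, and the groups overlapped. TPR1 had 23.7, 24.3 and 24.9 RPKM with GR24 4DO and 21.4, 22.3 and 23.0 RPKM with solvent, without overlap. TPR2 had 20.4, 22 and 22.1 RPKM against 16.3, 21.2 and 22.8 RPKM with solvent, with solvent replicate 1 the lowest. TPR3 and TPR4 likewise had their lowest value in solvent replicate 1, at 10.3 and 9.98 RPKM, against 12.4 to 13.0 and 12.2 to 12.9 RPKM with GR24 4DO.

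BRC1, the branching regulator of axillary buds that acts below strigolactone signalling in shoots, was under the minimum level and was not tested. It had 16 reads over the 3 GR24 4DO libraries (0.124, 0.142 and 0.123 RPKM) and 2 reads over the 3 solvent libraries (0.0248, 0.0165 and 0 RPKM). With so few reads counting error is large, and no fold is given. Its relative BRC2 had 12 reads in each group.

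Genes of strigolactone synthesis showed no call, 0 of 4 tested, with log2 differences from -0.23 to 0.31. MAX1, a cytochrome P450 that acts on carlactone, had 11.2, 12 and 11.4 RPKM with GR24 4DO and 8.2, 10.1 and 10.1 RPKM with solvent (adjusted p = 0.0911). MAX4, the dioxygenase CCD8, had 0.938, 0.798 and 1.01 RPKM with GR24 4DO and 1.28, 1.32 and 1.14 RPKM with solvent (adjusted p = 0.183). In both genes, and in CLAMT and LBO, given next, the groups did not overlap, which 26.4% of all genes shared. CLAMT, a methyltransferase of carlactonoic acid, had 2.79, 3.92 and 3.69 RPKM with GR24 4DO and 2.41, 2.65 and 2.69 RPKM with solvent (adjusted p = 0.18), and LBO, an oxygenase that acts late in the pathway, had 2.43, 3.03 and 3.01 RPKM with GR24 4DO and 3.29, 3.06 and 3.29 RPKM with solvent (adjusted p = 0.351). MAX1 and CLAMT passed with the replicate number as a block over all 15 libraries, but not with a block fitted to the 6 alone (0.0944 and 0.105). D27 and MAX3 were under the minimum level, with 27 reads in GR24 4DO and 42 in solvent libraries for D27 and 3 reads in each group for MAX3.

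Genes of the karrikin list were called higher as well, 4 of 8 members tested and 0 lower, with a median log2 difference of 0.26. Of all genes, 0.906% were called higher, around a median of 0.055. With gene length trends removed the list median was 0.12 with 3 calls, and with median-of-ratios scaling 0.21 with 3 calls. The list also holds the family members SMXL3, SMXL4 and SMXL5, which have a role in phloem formation and were not called. BBX20, a B-box factor of light and karrikin responses, stood at 30.3, 31.4 and 33.1 RPKM with GR24 4DO and 12.8, 15.7 and 16.4 RPKM with solvent (2.11-fold, log2 difference 1.04, SE 0.111, adjusted p = 0.00014). KUF1, an F-box gene induced by karrikins, stood at 20.1, 18.9 and 20 RPKM with GR24 4DO and 11.4, 10.8 and 11.0 RPKM with solvent (1.78-fold, 0.78, adjusted p = 0.000379). Both genes were well separated. SMXL2, which encodes a repressor of the KAI2 pathway, had 21.8, 21.2 and 20.7 RPKM with GR24 4DO and 13.8, 13.1 and 13.3 RPKM with solvent (1.58-fold, 0.63, adjusted p = 0.000462). SMAX1, the main repressor of that pathway, had 95.8, 90.8 and 96.8 RPKM with GR24 4DO and 76.6, 76.8 and 78.8 RPKM with solvent (1.22-fold, 0.28, adjusted p = 0.0272). The calls of BBX20, KUF1 and SMXL2 held without any 1 library, whereas that of SMAX1 ended without any 1 of the 6 (0.0597 to 0.137), with the replicate block in the 6 libraries (0.0523), with median-of-ratios scaling (0.134) and with gene length trends removed (0.347).

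Other members of the SMXL family and the karrikin receptor were not called. KAI2 stood at 50.5, 48.5 and 48.0 RPKM with GR24 4DO and 53.4, 46.9 and 46.2 RPKM with solvent (log2 difference 0.01, SE 0.0634, changing sign in 8 of the other settings), and its groups overlapped. SMXL3 had 3.24, 3.77 and 3.44 RPKM with GR24 4DO and 2.39, 3.1 and 3.07 RPKM with solvent. SMXL4 had 2.37, 2.58 and 2.59 RPKM with GR24 4DO and 2.04, 2.02 and 1.91 RPKM with solvent. SMXL5, which like SMXL3 and SMXL4 has a role in phloem formation, had 12.9, 12.9 and 13.1 RPKM with GR24 4DO and 10.2, 11.3 and 11.2 RPKM with solvent. In these 3 genes the groups did not overlap, with log2 differences of 0.22, 0.23 and 0.23 and adjusted p of 0.238, 0.202 and 0.175. Of all genes, 19.4% lay wholly higher with GR24 4DO, and with gene length trends removed the 3 differences were 0.10, 0.10 and 0.08.

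**Figure D2:**
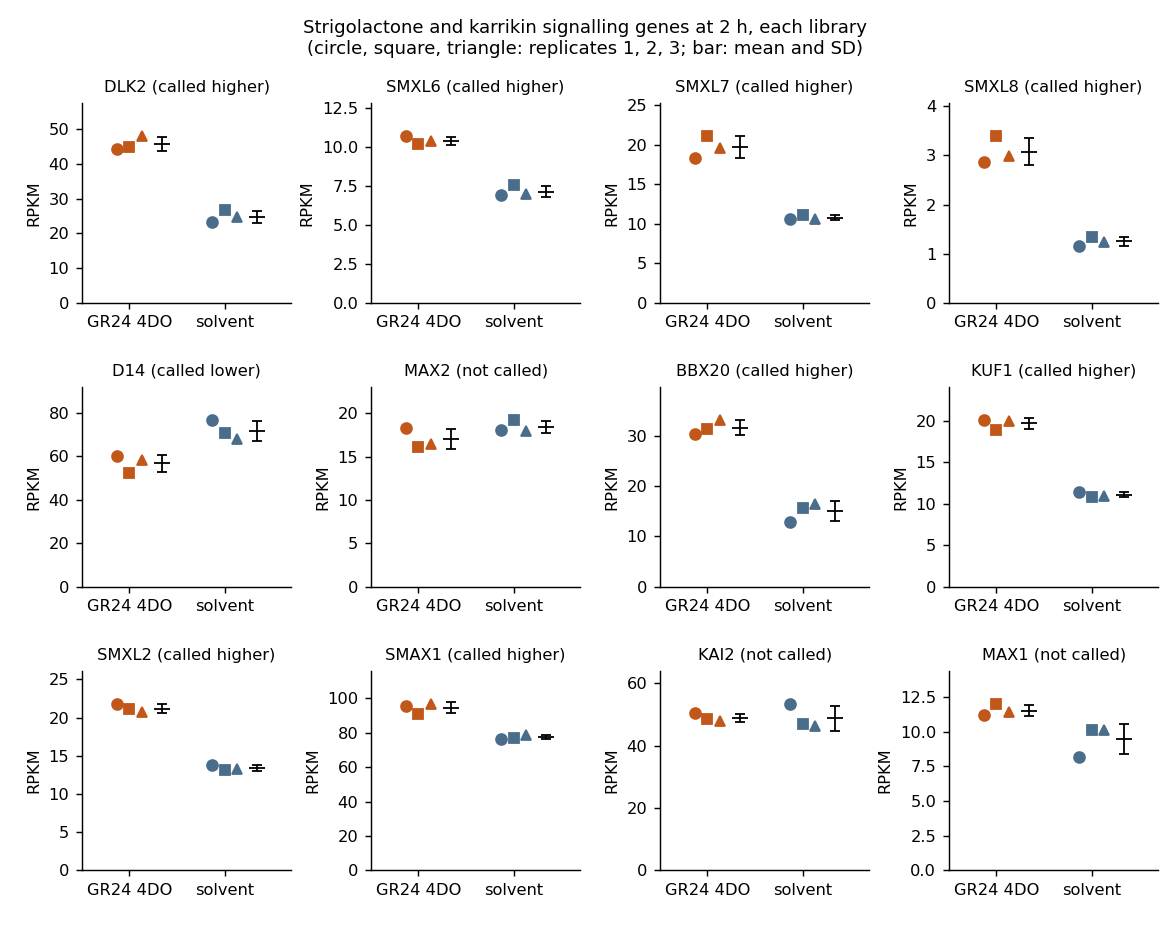
RPKM of 12 signalling and synthesis genes in each library of 2 h, GR24 4DO left of solvent, with replicates 1, 2 and 3 as circle, square and triangle and the mean with its SD beside them. DLK2, SMXL7, SMXL8, BBX20, KUF1 and SMXL2 are separated widely, SMXL6, SMAX1 and D14 by less, and KAI2 and MAX2 overlap.

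Outside these pathways, the strongest changes fell on regulators, transporters and enzymes of several kinds. The MYB-like factor gene AT5G56840 had the highest log2 difference of the called genes, at 6.61, 5.05 and 4.88 RPKM with GR24 4DO and 1.67, 1.87 and 1.48 RPKM with solvent (3.29-fold, log2 1.28, SE 0.136, adjusted p = 0.00014). GSTU22, a glutathione transferase of the tau class, had 7.63, 7.74 and 8.9 RPKM with GR24 4DO and 3.21, 2.86 and 2.54 RPKM with solvent (2.82-fold, 1.23, adjusted p = 0.00014). AT5G51500, annotated in the pectin methylesterase and inhibitor family, had 2.01, 2.06 and 2.01 RPKM with GR24 4DO and 0.62, 0.543 and 0.816 RPKM with solvent (3.07-fold, 0.87, adjusted p = 0.00014). It passed the minimum only through GR24 4DO, which fixes its separation. The groups of AT5G56840 and GSTU22 did not overlap, and all 3 calls held without any 1 library. AT4G13180, an annotated NAD(P)-binding Rossmann-fold protein, was at a higher level, with 72.7, 71.9 and 77.4 RPKM with GR24 4DO and 44.2, 47.0 and 47.0 RPKM with solvent (1.61-fold, 0.67, adjusted p = 0.00014). AT3G16330, annotated as rapidly elicited by a fungal effector, had 35.6, 36.6 and 38.7 RPKM with GR24 4DO and 16.1, 22 and 22.2 RPKM with solvent (1.84-fold, 0.86, adjusted p = 0.00255). BGLU47, a beta-glucosidase gene, had 1.67, 2.66 and 2.05 RPKM with GR24 4DO and 0.43, 0.886 and 1.03 RPKM with solvent (2.72-fold, 0.82, adjusted p = 0.0166). The low solvent value of BGLU47 was again that of replicate 1, and its call ended without that library (0.0891) and without GR24 4DO replicate 2 or 3, at up to 0.106.

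Iron uptake genes of roots had 4 of 16 tested called higher and 0 lower (25.0%, against 1.33% of all genes), with a median log2 difference of 0.19. FIT, the bHLH master regulator of iron acquisition in the root epidermis, had 9.49, 11.9 and 11.3 RPKM with GR24 4DO and 4.83, 5.86 and 5.54 RPKM with solvent (2.02-fold, 0.89, SE 0.098, adjusted p = 0.000156). ABCG37, an exporter of iron-chelating coumarins that also carries auxin precursors, had 8.87, 10.5 and 9.77 RPKM with GR24 4DO and 3.65, 5.1 and 4.7 RPKM with solvent (2.17-fold, 0.97, adjusted p = 0.000524). Both were separated by more than 3 RPKM between the nearest libraries. NAS4 and NAS3, which make the metal chelator nicotianamine, averaged 26.6 ± 2.87 and 12.3 ± 2.1 RPKM with GR24 4DO and 18.3 ± 1.35 and 8.39 ± 0.764 RPKM with solvent (SD, n = 3 each; adjusted p = 0.0236 and 0.0327). Beside these values stands the root marker sum, which was lowest in solvent replicate 1; its part in the result was not tested. Without that library FIT and ABCG37 stayed at log2 differences of 0.83 and 0.86 (adjusted p = 0.00152 and 0.00285), while the calls of NAS4 and NAS3 ended (0.118 and 0.149). None of 18 root markers tested was called, and their median log2 difference was 0.13, or 0.04 without solvent replicate 1. FRD3, a citrate exporter that loads iron into the xylem, named here after its values were seen, rose to 2.38 RPKM against 1.52 RPKM with solvent (log2 difference 0.43, adjusted p = 0.0154), as did AT3G25190, annotated as a vacuolar iron transporter, at 8.38 against 5.1 RPKM (0.63, adjusted p = 0.0166).

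Cytokinin genes gave 4 calls higher and 0 lower of 32 tested (12.5%, against 1.33% of all genes), around a median of 0.03. ARR16, a type-A response regulator that damps cytokinin signalling, had 8.69, 6.95 and 9.02 RPKM with GR24 4DO and 3.84, 3.92 and 4.36 RPKM with solvent (2.04-fold, 0.87, adjusted p = 0.00014). AHP4, a phosphotransfer protein of the cytokinin relay, had 6.01, 5.83 and 5.99 RPKM with GR24 4DO and 3.03, 2.71 and 2.72 RPKM with solvent (2.11-fold, 0.86, adjusted p = 0.000379). Neither gene's groups overlapped. The activating enzyme gene LOG7 averaged 22.3 ± 0.215 RPKM against 17.1 ± 0.678 RPKM with solvent (adjusted p = 0.00765) and the degrading oxidase gene CKX1 1.92 ± 0.266 against 0.933 ± 0.131 RPKM (adjusted p = 0.0125; SD, n = 3 each). The call of CKX1 ended without GR24 4DO replicate 2 or solvent replicate 1, at up to 0.0835. With close replicate pairs averaged LOG7 and CKX1 had 0.0799 and 0.0672. With quantile normalization 3 other members were called lower and the list median was -0.06.

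Abscisic acid genes were called in both directions, 3 higher and 2 lower of 24 (20.8%, against 1.33% of all genes), with a median of 0.03. The hydroxylases that break the hormone down rose: CYP707A3 had 7.31, 8.8 and 8.52 RPKM with GR24 4DO and 3.32, 4.68 and 4.38 RPKM with solvent (1.99-fold, 0.85, adjusted p = 0.000524). CYP707A1 averaged 6.66 ± 0.525 RPKM with GR24 4DO and 4.3 ± 0.244 RPKM with solvent (adjusted p = 0.00124). COR15A, a cold- and abscisic acid-induced protein of chloroplasts, fell to 113 ± 5.36 RPKM against 143 ± 3.9 RPKM in solvent (adjusted p = 0.00228), and the dehydrin gene RAB18 to 5.71 ± 0.585 against 8.39 ± 1.3 RPKM (adjusted p = 0.0452). RAB18 lost its call in 5 of the 6 leave-one-out fits, all but that without solvent replicate 3, at up to 0.204. ABF3, a bZIP activator of abscisic acid responses, was called higher, at 5.43 against 4.06 RPKM with solvent (log2 difference 0.34, adjusted p = 0.0492).

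Gibberellin genes had 2 calls higher and 1 lower of 14, but 0 and 2 with quantile normalization, 0 and 1 with median-of-ratios scaling, 1 and 2 with gene length trends removed and 0 and 0 without solvent replicate 1. GA3OX2, which makes active gibberellin, averaged 2.78 ± 0.272 RPKM with GR24 4DO and 1.78 ± 0.231 RPKM with solvent (adjusted p = 0.0223), and the DELLA repressor genes RGL1 and GAI averaged 10.8 and 22.3 RPKM with GR24 4DO and 8.59 and 26.5 RPKM with solvent (adjusted p = 0.0312 and 0.0471). With the replicate block in the 6 libraries these 3 gave 0.0651, 0.0815 and 0.0883, and each also lost its call without 4 or more of the libraries taken singly, at up to 0.222. CYP90D1, of brassinosteroid synthesis, was the 1 gene called of 12 on its list, at 6.49 ± 0.759 RPKM with GR24 4DO and 3.88 ± 0.327 RPKM with solvent (adjusted p = 0.0179), and its call ended without GR24 4DO replicate 2 or 3 or solvent replicate 1, at up to 0.107. ACO3, an ethylene-forming oxidase gene, was called lower as 1 of 23 ethylene genes (8.94 against 11.7 RPKM with solvent, adjusted p = 0.0479, or 0.0668 with the block), and AOS, an early enzyme of jasmonate synthesis, as 1 of 28 jasmonate genes (81.3 ± 7.78 against 106 ± 4.14 RPKM, adjusted p = 0.0136). ACO3 lost its call without any library but solvent replicate 2, at up to 0.206, and AOS without GR24 4DO replicate 2 or 3 or solvent replicate 1, at up to 0.097.

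Among auxin genes, the calls lower fell mostly on the SAUR family. In the lists of auxin response and of auxin synthesis and transport, IAA29 was called lower and GH3.6 and LAX3 higher. The SAUR family encodes small proteins induced by auxin that promote cell expansion. Of 54 members tested, 5 were called lower and 0 higher (9.26%, against 1.33% of all genes). The family's median log2 difference was -0.21, and 22 members (of all genes, 6.96%) lay wholly below solvent. AT1G29450 had 1.17, 1.26 and 1.81 RPKM with GR24 4DO and 3.37, 3.26 and 2.73 RPKM with solvent (0.453-fold, -0.78, adjusted p = 0.0174). Its neighbour AT1G29460 had 0.569, 0.783 and 0.75 RPKM with GR24 4DO and 1.83, 2.05 and 1.48 RPKM with solvent (0.392-fold, -0.71, adjusted p = 0.0069). These lie next to each other on chromosome 1, and reads of near-identical SAUR copies may be shared or lost, so single members are uncertain. SAUR29 had 3.46, 2.24 and 2.74 RPKM with GR24 4DO and 7.33, 4.77 and 4.55 RPKM with solvent (0.507-fold, -0.77, adjusted p = 0.0174). SAUR26 had 0.511, 0.912 and 0.757 RPKM with GR24 4DO and 1.85, 1.52 and 1.6 RPKM with solvent (0.438-fold, -0.63, adjusted p = 0.019). The groups of AT1G29450 and SAUR29 did not overlap, while AT1G29460 and SAUR26 passed the minimum only through solvent, which fixes their separation. The calls of AT1G29450 (without GR24 4DO replicate 2 or solvent replicate 1 or 2), SAUR29 (without GR24 4DO replicate 2 or 3 or solvent replicate 1) and SAUR26 (without GR24 4DO replicate 1 or 3 or solvent replicate 1 or 3) ended, at up to 0.0973, 0.11 and 0.094. Without solvent replicate 1 the family had 2 calls and a median of -0.20, and with the scaling alternatives 9 to 11 calls and medians of -0.21 to -0.27.

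Other auxin genes gave single calls. IAA29, an auxin-induced Aux/IAA repressor gene, averaged 0.53 ± 0.177 RPKM with GR24 4DO and 1.29 ± 0.018 RPKM with solvent, through which alone it passed the minimum (adjusted p = 0.00421), and GH3.6, an auxin-conjugating enzyme gene, 18.9 ± 0.102 and 14 ± 1.14 RPKM (adjusted p = 0.00439; SD, n = 3 each). They were the 2 called of 30 auxin response genes (6.67%, against 1.33% of all genes), whose median was -0.09. With close replicate pairs averaged IAA29 had an adjusted p of 0.052. Of 22 genes of auxin synthesis and transport, the influx carrier gene LAX3 alone was called (4.55%), around a list median of -0.13. It averaged 40.4 ± 1.37 RPKM with GR24 4DO and 31.6 ± 3.25 RPKM with solvent (adjusted p = 0.0305). LAX3 lost its call with median-of-ratios scaling (0.063) and without GR24 4DO replicate 2 or 3 or solvent replicate 1 or 2, at up to 0.144. HAT2, an auxin-induced HD-Zip II factor, was called lower as 1 of 9, at 13.5 ± 0.831 RPKM with GR24 4DO and 18.3 ± 2.0 RPKM with solvent (adjusted p = 0.0183, or 0.0557 with the replicate block), and lost its call without GR24 4DO replicate 3 or solvent replicate 2 or 3, at up to 0.112.

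Flavonol synthesis had 4 of 10 genes called higher and 0 lower (40.0%, against 1.33% of all genes), with a median of 0.29. Without solvent replicate 1 the median was 0.24, and with median-of-ratios scaling 2 calls were made. FLS1, flavonol synthase, averaged 28.0 ± 1.41 RPKM with GR24 4DO and 20.8 ± 0.405 RPKM with solvent (adjusted p = 0.00178) and kept its call without any 1 library. MYB111, an activator of these genes, averaged 6.31 ± 0.568 and 4.44 ± 0.524 RPKM, the enhancer gene CHIL 21.0 ± 0.446 and 16.3 ± 0.885 RPKM, and chalcone synthase, CHS, 136 ± 7.5 and 111 ± 2.0 RPKM, GR24 4DO first (SD, n = 3 each; adjusted p = 0.0205, 0.0236 and 0.0236). With median-of-ratios scaling CHIL and CHS had 0.0648 and 0.156, with quantile normalization CHIL had 0.0501, and with gene length trends removed CHS had 0.125. The calls of MYB111 and CHS ended with the replicate block (0.0719 and 0.0594), and all 3 ended without 4 or more of the libraries taken singly, at up to 0.134, 0.117 and 0.0895. None of 6 anthocyanin genes and 1 of 16 phenylpropanoid genes was called. The phenylpropanoid gene was the lignin enzyme gene C3'H, lower at 52.7 ± 4.09 RPKM against 63.6 ± 1.99 RPKM in solvent (adjusted p = 0.0362, or 0.0735 with the block, 0.0511 with median-of-ratios scaling and up to 0.217 with a library left out).

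Detoxification genes rose in part: 6 of 51 were called higher and 0 lower (11.8%, against 1.33% of all genes), with a median of 0.08. Besides GSTU22 these included GSTU25 (28.5 ± 0.76 RPKM with GR24 4DO and 20.1 ± 1.86 RPKM with solvent, adjusted p = 0.00372), GSTU8 (43.5 ± 3.06 and 31.1 ± 2.62 RPKM, adjusted p = 0.00423) and the glucosyltransferase gene UGT73B1 (42.2 ± 1.1 and 31.7 ± 2.2 RPKM, adjusted p = 0.002; SD, n = 3 each). The other calls were UGT73B3 and UGT73B4, with log2 differences of 0.35 and 0.33. Each of the first 4 kept its call without any 1 library, but GSTU25 and GSTU8 had 0.0654 and 0.0799 with close replicate pairs averaged. The list of sugar and amino acid exporters had 5 calls higher and 0 lower of 46 (10.9%, against 1.33% of all genes), with a median of 0.04. These were UMAMIT20 and its neighbour on chromosome 4, UMAMIT17, with UMAMIT12, UMAMIT31 and SWEET4. UMAMIT20 averaged 13.1 ± 1.04 RPKM with GR24 4DO and 8.83 ± 0.612 RPKM with solvent (adjusted p = 0.00203). UMAMIT17 averaged 7.9 RPKM with GR24 4DO and 5.55 RPKM with solvent, UMAMIT12 20.9 and 14.9 RPKM, and UMAMIT31 6.62 and 4.52 RPKM. UMAMIT31 lost its call without GR24 4DO replicate 2 or 3 or solvent replicate 3, at up to 0.0993. With close replicate pairs averaged UMAMIT17, UMAMIT12 and UMAMIT31 had 0.0654, 0.052 and 0.102.

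Of 23 genes of sugar and starvation, 2 were called lower and 1 higher (13.0%, against 1.33% of all genes), around a median of 0.01. DRM2, annotated as dormancy- and auxin-associated, fell to 275 ± 10.0 RPKM against 393 ± 23.2 RPKM in solvent (adjusted p = 0.00874), and ASN1, an asparagine synthetase induced by sugar starvation, to 2.22 ± 0.259 against 3.48 ± 0.242 RPKM (adjusted p = 0.00583, or 0.0586 with the replicate block; SD, n = 3 each). TPPI rose to 1.62 against 0.889 RPKM (adjusted p = 0.0418, or 0.0858 with the block, up to 0.231 with a library left out, and 0.0521 with median-of-ratios scaling). DRM2 lost its call without GR24 4DO replicate 2 (0.0581). AT3G15450, a gene annotated as aluminium-induced, had 75.1, 65.5 and 73.0 RPKM with GR24 4DO and 134, 104 and 103 RPKM with solvent (0.627-fold, -0.66, adjusted p = 0.00124), with solvent replicate 1 the highest. The call stayed without that library.

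Photosynthesis genes had a list median below 0. Of 46 photosystem and antenna genes, 2 were called lower and 0 higher (4.35%, against 1.33% of all genes). The median was -0.14, or -0.07 with quantile normalization, and 24 genes lay wholly below solvent, as did 6.96% of all genes. LHCB1.4 and LHCB2.3, chlorophyll-binding antenna genes of photosystem II, averaged 163 ± 14.5 and 23.3 ± 0.489 RPKM with GR24 4DO and 214 ± 8.19 and 31.0 ± 0.857 RPKM with solvent (SD, n = 3 each; adjusted p = 0.0174 and 0.0175). LHCB1.4 lost its call without GR24 4DO replicate 2 or 3 or solvent replicate 1 or 2 (up to 0.112) and LHCB2.3 without GR24 4DO replicate 2 or 3 or solvent replicate 2 (up to 0.0916); near-identical LHCB copies may share reads. ELIP1, a chlorophyll-binding protein of light stress, rose to 12.5 ± 1.29 RPKM against 7.55 ± 0.681 RPKM in solvent (adjusted p = 0.00292, or 0.0516 with close replicate pairs averaged). It was the 1 called of 24 light signalling genes. Chlorophyll synthesis (18 tested) and the clock (20 tested) had 0 calls. SUC2, the sucrose carrier of phloem companion cells, fell to 48.6 ± 2.76 RPKM against 65.9 ± 2.28 RPKM (adjusted p = 0.00655), while APL, another phloem marker, had 11.7, 11.1 and 11.9 RPKM with GR24 4DO and 11.4, 11.3 and 11.5 RPKM with solvent.

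Among the genes called lower, those of the largest change were mostly outside the lists. AT5G62280, a DUF1442 protein of unknown function, had 9.92, 9.74 and 9.99 RPKM with GR24 4DO and 20.5, 19.0 and 18 RPKM with solvent (0.515-fold, -0.89, SE 0.0921, adjusted p = 0.00014). AT3G21352, an uncharacterised protein, had 3.0, 2.45 and 1.55 RPKM with GR24 4DO and 4.71, 6.06 and 4.57 RPKM with solvent (0.456-fold, -0.89, adjusted p = 0.00532). AT3G21460, a glutaredoxin gene, had 0.911, 0.867 and 0.692 RPKM with GR24 4DO and 2.45, 2.69 and 1.88 RPKM with solvent (0.352-fold, -0.87, adjusted p = 0.00358). The groups of AT5G62280 and AT3G21352 did not overlap, while those of AT3G21460 were kept apart by the filter. The 3 calls held without any 1 library. AT5G12050, annotated as a rho GTPase-activating protein, had 14.6, 13.7 and 16.3 RPKM with GR24 4DO and 27.5, 23.6 and 25.1 RPKM with solvent (0.585-fold, -0.74, adjusted p = 0.000206). AT5G02760, a protein phosphatase 2C gene, had 22.7, 24.9 and 22.8 RPKM with GR24 4DO and 36.3, 39.1 and 41.2 RPKM with solvent (0.604-fold, -0.70, adjusted p = 0.00014). AT5G44260, a CCCH zinc finger gene, had 9.97, 8.58 and 9.23 RPKM with GR24 4DO and 14.3, 16.4 and 15.6 RPKM with solvent (0.6-fold, -0.68, adjusted p = 0.0015). These 3 were also apart in every library and kept their calls.

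PDF1.2, a plant defensin gene used as a marker of jasmonate and ethylene defence, had 5.43, 3.85 and 4.36 RPKM with GR24 4DO and 9.47, 7.13 and 6.84 RPKM with solvent (0.582-fold, -0.67, adjusted p = 0.00644). MAKR6, a membrane-associated kinase regulator gene, had 3.54, 4.27 and 3.81 RPKM with GR24 4DO and 6.6, 6.09 and 6.51 RPKM with solvent (0.605-fold, -0.60, adjusted p = 0.00111). GLP9, a germin-like protein gene, had 42.7, 42.2 and 39.4 RPKM with GR24 4DO and 55.2, 59.6 and 58.6 RPKM with solvent (0.717-fold, -0.47, adjusted p = 0.000524). All 3 kept their calls without any 1 library. AT4G16000, an uncharacterised protein, had 1.33, 1.2 and 1.06 RPKM with GR24 4DO and 2.91, 2.64 and 2.02 RPKM with solvent (0.475-fold, -0.67, adjusted p = 0.0109), and AT1G11185, a non-coding RNA, had 6.28, 6.56 and 5.45 RPKM with GR24 4DO and 10.2, 10.4 and 9.61 RPKM with solvent (0.606-fold, -0.64, adjusted p = 0.0069). Their groups did not overlap, but AT4G16000 lost its call without GR24 4DO replicate 3 or solvent replicate 1 or 2 (up to 0.0749) and AT1G11185 without GR24 4DO replicate 3 (0.0555). In solvent at 0 h, AT5G62280, AT5G12050 and AT5G44260 averaged 44.5, 46.2 and 29.5 RPKM, above both groups of 2 h.

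**Figure D3:**
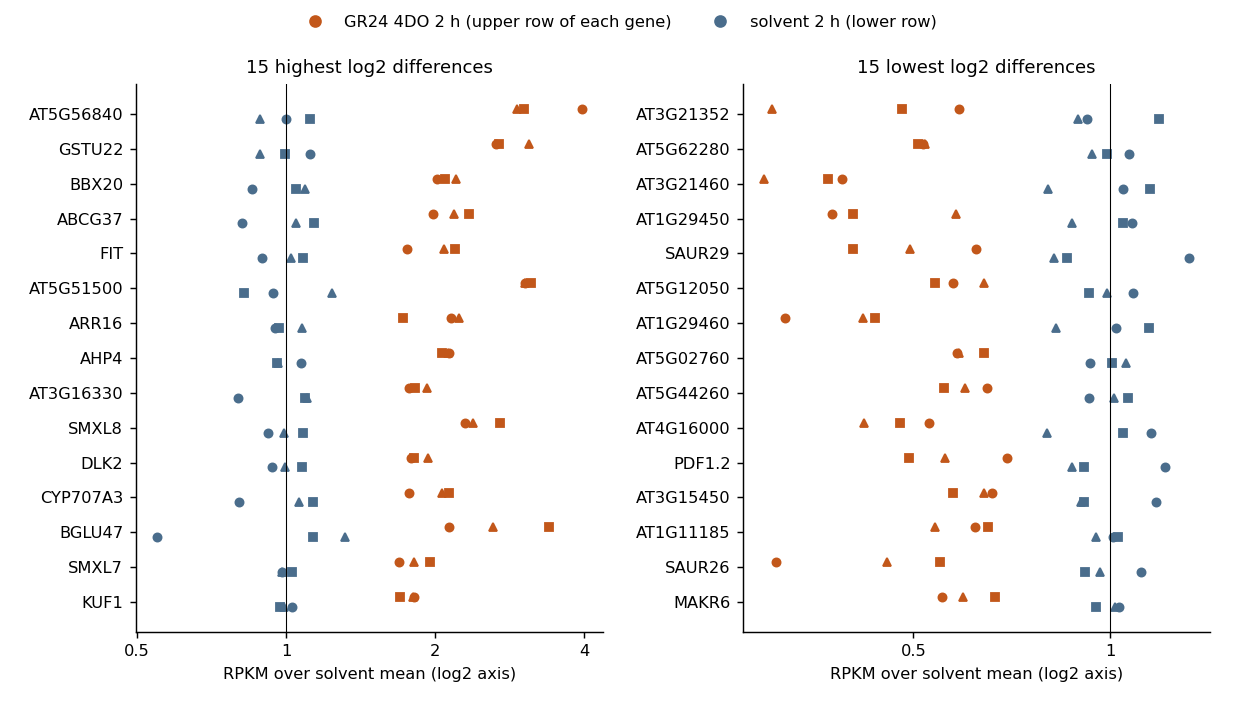
RPKM of each library of 2 h over the solvent mean of the gene, on a log2 axis, with replicates 1, 2 and 3 as circle, square and triangle. Shown are the 15 highest and 15 lowest log2 differences of called genes, for which lack of overlap was a condition of the choice. In AT5G51500, AT3G21460, AT1G29460 and SAUR26 the filter fixed the separation. GR24 4DO libraries lie above 1 on the left and below 1 on the right, and solvent replicate 1 of BGLU47 and of SAUR29 lies farthest from the solvent mean.

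Transcription factors were called higher more than lower. By annotation description 881 tested genes named a transcription factor family, of which 27 were called higher and 3 lower (3.41%, against 1.33% of all genes). The split was 14 and 5 with median-of-ratios scaling, 19 and 7 with quantile normalization and 9 and 2 without solvent replicate 1. The MYB description had 6 called higher of 174, the WRKY description 3 of 51, NAC 3 of 64 and bHLH 4 of 87, each with 0 called lower. The bHLH calls were 0 with median-of-ratios scaling, 1 with quantile normalization, 1 with gene length trends removed and 0 without solvent replicate 1, the WRKY calls 1, 1, 1 and 0 in the same order, the NAC calls 2, 3, 3 and 1, and the MYB calls 5, 5, 5 and 2. AT1G64380, an ERF-type factor, averaged 7.75 ± 0.578 RPKM with GR24 4DO and 4.12 ± 0.294 RPKM with solvent (log2 difference 0.77, adjusted p = 0.000935), and AT4G31620, of the B3 family, 1.46 ± 0.067 and 0.693 ± 0.0344 RPKM (0.54, adjusted p = 0.0069; SD, n = 3 each). AT4G31620 passed the minimum only through GR24 4DO. These calls, with those of AT5G56840 and BBX20, held without any 1 library. AT2G33710, another ERF-type factor, averaged 4.0 RPKM with GR24 4DO and 2.27 RPKM with solvent, and the Dof factors AT4G00940, AT1G29160 and AT2G34140 averaged 4.67, 20.8 and 7.18 RPKM with GR24 4DO and 2.94, 14.2 and 4.77 RPKM with solvent. AT2G33710 and AT2G34140 lost their calls without GR24 4DO replicate 2 (0.0511 and 0.0559), AT4G00940 also without GR24 4DO replicate 3 or solvent replicate 1 (up to 0.112) and AT1G29160 without GR24 4DO replicate 2 or solvent replicate 1 or 3 (up to 0.0563) and with median-of-ratios scaling (0.055). AT2G34140 had 0.0691 with quantile normalization.

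Developmental regulators were among the factors called higher. KAN, the organ polarity factor KANADI1, averaged 11.0 ± 0.82 RPKM with GR24 4DO and 7.19 ± 1.76 RPKM with solvent (adjusted p = 0.0305), LOV1, a NAC factor, 9.37 ± 2.7 and 5.1 ± 1.29 RPKM (adjusted p = 0.0316), MYB56 3.63 ± 0.183 and 2.23 ± 0.0729 RPKM (adjusted p = 0.0301) and WRKY31 6.77 ± 0.708 and 4.42 ± 0.267 RPKM (adjusted p = 0.0201; SD, n = 3 each). SPCH and FAMA, which start and end the stomatal lineage, averaged 22.2 ± 1.48 and 14.5 ± 0.998 RPKM with GR24 4DO and 15.8 ± 2.39 and 11.6 ± 0.399 RPKM with solvent (adjusted p = 0.0373 and 0.0381). Both calls ended with every other scaling, at 0.0914 and 0.0737 with median-of-ratios scaling, 0.065 and 0.0684 with quantile normalization and 0.0624 and 0.0539 with gene length trends removed. They were the 2 called of 13 shoot markers, whose other stomatal members, MUTE, TMM and EPF2, had log2 differences of 0.07, -0.03 and -0.03. With median-of-ratios scaling KAN and WRKY31 had 0.053 and 0.0593, with quantile normalization 0.0501 and 0.103, and WRKY31 had 0.0591 with gene length trends removed. All 6 calls ended without 3 or more libraries taken singly, at up to 0.224, and that of FAMA with the block (0.0676). The 3 factors called lower were HAT2 and GAI, given above, and BBX28, a B-box factor of light signalling, which averaged 12.6 ± 0.435 RPKM with GR24 4DO and 16.7 ± 0.555 RPKM with solvent (adjusted p = 0.00228).

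Single calls fell on other lists. Signal peptides, class III peroxidases and wall-loosening genes had 2.13%, 3.39% and 4.17% called, against 1.33% of all genes. With 1 or 2 calls each, these shares say little of the lists. PDC1, pyruvate decarboxylase of fermentation, averaged 7.69 ± 0.414 RPKM with GR24 4DO and 4.82 ± 0.262 RPKM with solvent (adjusted p = 0.000615) as 1 of 13 hypoxia genes. PR2, a beta-glucanase of salicylic acid defence, averaged 20.5 ± 0.595 and 15.2 ± 1.25 RPKM (adjusted p = 0.00696) and WRKY70, a regulator of that defence, 31.4 ± 2.7 and 22.5 ± 1.56 RPKM (adjusted p = 0.0339), the 2 called of 12 on their list. PDC1 and PR2 kept their calls without any 1 library, and WRKY70 did so only without GR24 4DO replicate 1, reaching 0.195. CLE45, a peptide gene that acts on root phloem, averaged 1.8 ± 0.29 and 0.873 ± 0.0894 RPKM (adjusted p = 0.0351, up to 0.194 with a library left out and 0.0527 with median-of-ratios scaling), the 1 called of 47 signal peptide genes. It passed the minimum only through GR24 4DO. The expansin genes EXPA17 and EXPA1 were called in opposite directions, at 17.9 and 132 RPKM with GR24 4DO and 13.3 and 166 RPKM with solvent (adjusted p = 0.0303 and 0.0468, or 0.0554 and 0.0641 with the block, up to 0.167 and 0.18 with a library left out, and 0.0526 and 0.0529 with median-of-ratios scaling), as the 2 called of 48 wall-loosening genes. Of 59 class III peroxidases, AT3G03670 and AT1G49570 were called lower, at 2.12 and 20.9 RPKM with GR24 4DO and 3.71 and 24.9 RPKM with solvent (adjusted p = 0.0183 and 0.0306, the second 0.0789 with the block, and up to 0.117 and 0.153 with a library left out). HSP17.4, a small heat shock protein gene, was called lower as 1 of 8 (5.67 against 7.55 RPKM in solvent, adjusted p = 0.0492, or 0.0668 with the block) and lost the call without any 1 library. Of the 44 lists, 15 had no call, among them cell cycle (39 tested, median 0.12), ribosomal proteins (280, median -0.03), aquaporins (19, median -0.10), TCP factors (18, median 0.13), glucosinolate synthesis (21, median 0.05), nitrate (15, median -0.02), phosphate (13, median 0.04) and histones (41, median -0.07). Several list medians near 0 changed sign with scaling, among them those of the cytokinin, abscisic acid and gibberellin lists.

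**Figure D4:**
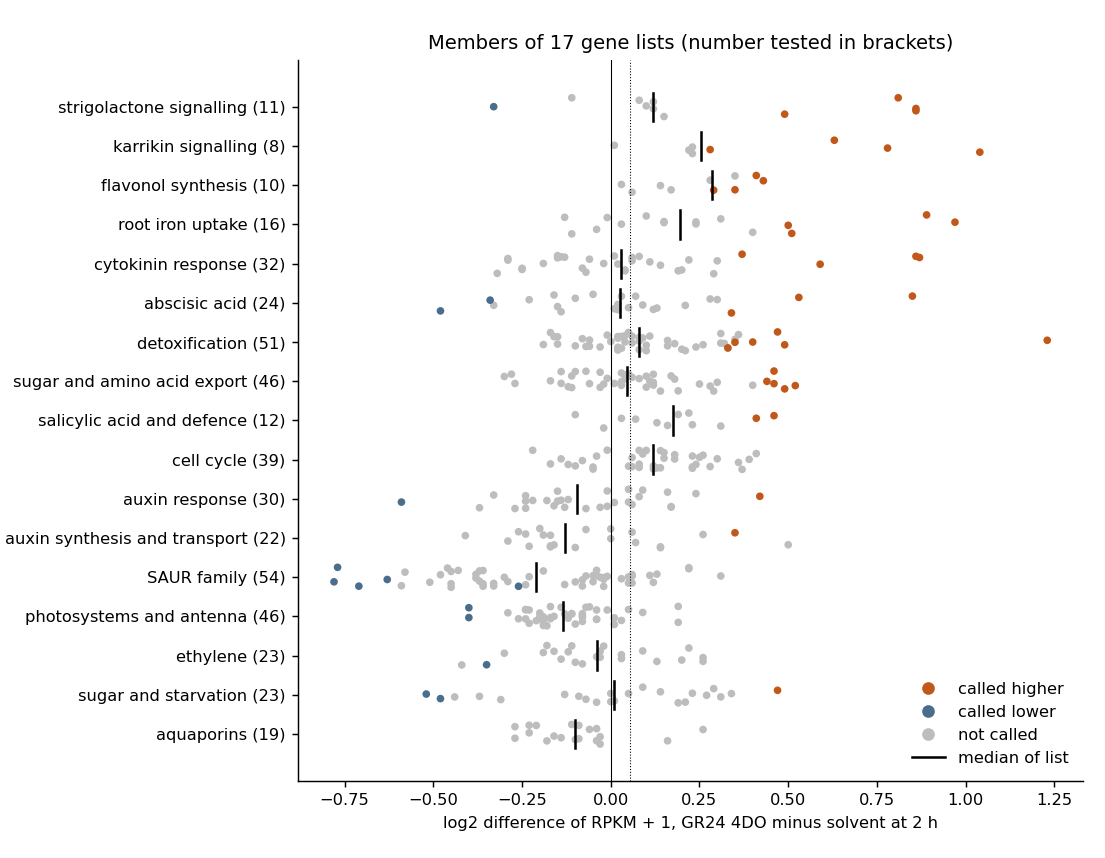
Each point is a gene of 1 of the lists named on the axis, with its log2 difference of RPKM + 1 at 2 h, GR24 4DO minus solvent; called genes are coloured, thick bars are list medians and the dotted line is the median of all genes at 0.055. Shares called higher were largest in the karrikin, flavonol, strigolactone signalling and iron lists. The SAUR and photosystem lists lie left of 0 with medians of -0.21 and -0.14.

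Of 1279 tested genes that averaged 100 RPKM or more, 10 were called (0.782%), 3 higher and 7 lower. DJ1A, an antioxidant protein gene, averaged 229 ± 5.48 RPKM with GR24 4DO and 174 ± 7.94 RPKM with solvent (log2 difference 0.39, adjusted p = 0.00178), and C/VIF2, an inhibitor of invertases, 194 ± 19.5 and 125 ± 29.2 RPKM (0.66, adjusted p = 0.0305). The call of C/VIF2 ended with median-of-ratios scaling (0.0687) and without GR24 4DO replicate 2 or 3 or solvent replicate 1, at up to 0.16. AT5G07580, an ERF-type factor, averaged 88.7 ± 3.33 and 71.8 ± 6.55 RPKM (adjusted p = 0.0414, or 0.0767 with the block). Lower were ERD7, a dehydration-associated gene, at 159 ± 2.87 RPKM with GR24 4DO and 186 ± 8.77 RPKM with solvent (adjusted p = 0.0315, or 0.0782 with the block), and AGT, a photorespiratory aminotransferase gene, at 156 ± 9.91 and 188 ± 2.28 RPKM (adjusted p = 0.0421, or 0.0699 with the block; SD, n = 3 each). Without a library these last 3 reached 0.199, 0.154 and 0.242, and AT5G07580 and AGT had 0.102 and 0.063 with median-of-ratios scaling.

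Whether the response of 2 h was still present at 4 h could be read from other libraries, with their own solvent controls. At 4 h, 1709 of the same 18757 genes were called (9.11%), 896 higher (4.78%) and 813 lower (4.33%). Of the 170 genes called higher at 2 h, 157 had the same sign and 111 (65.3%) were called higher at 4 h, which is 12.4% of the genes called higher then, and 2 were called lower. Of the 79 genes called lower at 2 h, 67 had the same sign and 46 (58.2%) were called lower at 4 h, 5.66% of the genes called lower then, and 3 were called higher. The difference between the responses at 4 h and at 2 h was called for 326 of all genes (1.74%) and for 33 of the 249. It was larger at 4 h for 9 and smaller or opposite for 9 of the genes called higher, and larger for 4 and smaller or opposite for 11 of those called lower.

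Of the signalling genes named next, DLK2 differed between the times, with 1.74 at 4 h against 0.86 at 2 h on the log2 scale (difference 0.88, adjusted p = 0.000118), as it averaged 50.6 RPKM with GR24 4DO and 14.4 RPKM with solvent at 4 h. SMXL7, SMXL8, SMXL2, BBX20 and KUF1 had log2 differences of 0.92, 1.01, 0.91, 1.17 and 0.66 at 4 h and no called difference between the times. AHP4 differed the other way, with 0.14 at 4 h against 0.86 at 2 h (difference -0.73, adjusted p = 0.0155), and ARR16, of the same list, stood at 1.27 at 4 h. ASN1, DRM2, AT3G15450 and AGT were called lower at 2 h and had values of 0.26, 0.18, 0.23 and 0.38 at 4 h, each with a called difference. UGT73B1 stood at 1.11 at 4 h against 0.40 at 2 h (difference 0.71, adjusted p = 0.000283).

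**Figure D5:**
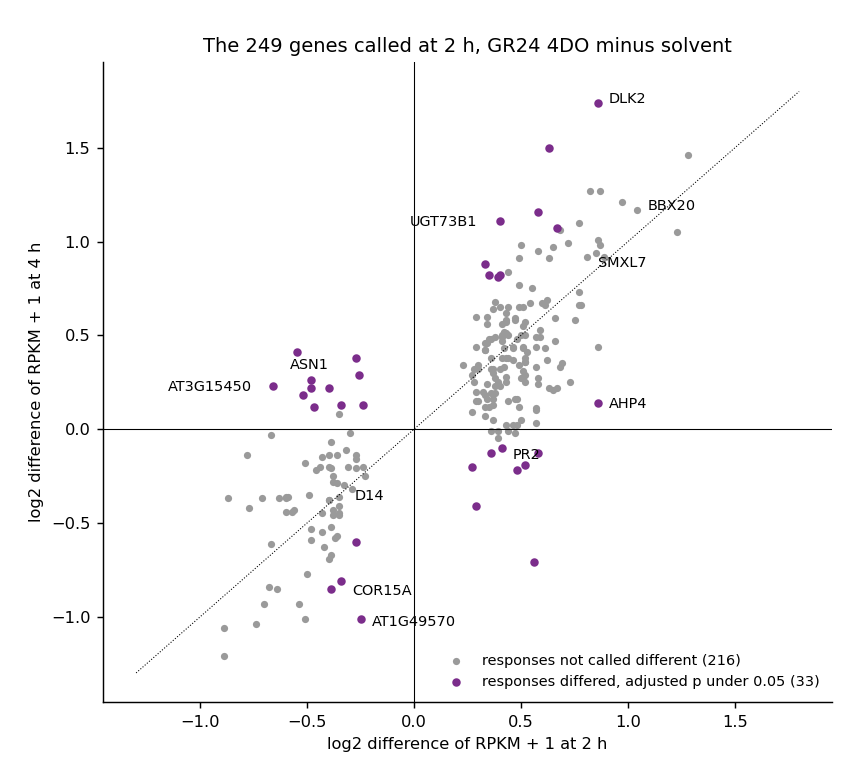
Log2 differences of RPKM + 1, GR24 4DO minus solvent, at 4 h against 2 h for the 249 genes called at 2 h; the dotted line marks equal responses and purple points the 33 genes whose responses differed at adjusted p under 0.05. DLK2 lies above the line, AHP4 and PR2 below it on the right, and ASN1 and AT3G15450 cross from lower at 2 h to above 0 at 4 h.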

How the data were processed

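RNA-seq libraries of 15 seedling samples in 5 groups of 3 were used. The values are RPKM per gene, which the authors deposited as 1 table with 32678 named genes and 1 empty line, left out here. Per the submitters' processing notes, STAR, featureCounts and DESeq were used with TAIR10; no version, strand or multi-mapping setting is given in the sources used here. All 347846 values above 0 were whole reads within 0.02, so read totals per library (24.4 to 37.4 M) were recovered; in a gene of 1 kb, 3 reads are 0.0801 to 0.123 RPKM. That floor covers counting error only.

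RPKM values were tested as log2(RPKM + 1) with limma 3.58.1 in R 4.3.3, with a trend of variance with level, all 15 libraries fitted by group (10 residual degrees of freedom) and Benjamini-Hochberg adjustment over 18757 genes at 0.05, with no minimum fold. Sentences that print an adjusted p refer to this fit. The script was tested on simulated data. The members and the gene lists were chosen with earlier results of these data known, the lists from textbook gene families. Named were the 15 highest and 15 lowest called genes, the signalling and synthesis lists, up to 4 called genes of each other list by p, the 5 called genes highest in level and the 5 lowest in p in each direction, and up to 12 called transcription factors in each direction. Of these 113 genes, 99 were called, and 48 of the 99 stayed so without any 1 library.

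Replicate numbers are shared by the groups. At 2 h, same-numbered GR24 4DO and solvent libraries deviated together, with correlations of 0.185, 0.138 and 0.105 across genes. Each was above those of other numbers, so at 2 h the numbers were taken to pair the samples by a rule of 0.1. At 4 h the correlations of equal numbers were -0.204, 0.508 and 0.415. Other numbers reached 0.279 (GR24 4DO 1 with solvent 2) and 0.423 (GR24 4DO 3 with solvent 1). The numbers therefore did not pair the 4 h libraries consistently, and the block over all 15 libraries takes such pairing as given. The main fit holds no block. Alternatives were other library sets, blocks, pseudocounts, minimum levels, scalings, variance models, averaging of close replicates, removal of gene length trends, a minimum change, and leaving out each library. Promoter sequence was read from the RefSeq TAIR10.1 genome and annotation by gene ID. Reads of near-identical copies, such as SAUR, LHCB and UGT73B genes, may be shared or lost.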

Additional observations from a re-analysis of the deposited data

Results flagged for a closer look

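Of 113 named genes, 15 were singled out because their response to GR24 4DO, against solvent, differed between 4 h and 2 h in limma's test of the difference itself. The values are the log2 response at 4 h minus that at 2 h. Each time has its own solvent libraries. DLK2 had the smallest p of those called higher at 2 h, with 0.88 (adjusted p = 0.000118), followed by UGT73B1 with 0.71 (0.000283), DJ1A with 0.42 (0.0101) and AT4G13180 with 0.40 (0.0383), all larger at 4 h. AHP4, at -0.73 (0.0155), and PR2, at -0.52 (0.0128), were called higher at 2 h and had smaller or opposite values at 4 h. Of the genes called lower at 2 h, COR15A, at -0.47 (0.00276), and AT1G49570, at -0.77 (0.000106), were lower still at 4 h. The other genes called lower at 2 h had smaller or opposite values at 4 h, namely AT3G15450 with 0.89 (0.00148), ASN1 with 0.74 (0.00253), RAB18 with 0.70 (0.0326), DRM2 with 0.69 (0.0098), AGT with 0.65 (0.00103), LHCB2.3 with 0.62 (0.00745) and GLP9 with 0.59 (0.00136). When the close replicate pairs of the series were averaged, 69 genes were called at 2 h and 4 of these 69 differed between the times. Without averaging it was 33 of 249.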

How the results depend on the processing

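Of 249 calls at 2 h (170 higher, 79 lower), 115 (81, 34) were made with the 6 libraries of 2 h alone, 1052 (798, 254) with the replicate block over all 15 libraries and 281 (202, 79) with the replicate block in the 6, of which 164 were shared with the 249. Averaging close pairs gave 69 (46, 23). Median-of-ratios scaling gave 104 higher, quantile normalization 155 lower and removal of gene length trends 174 lower. A test against a minimum change of 1.5-fold gave 0 calls in limma, 0 higher and 0 lower, with 22 genes at an unadjusted p under 0.05. Leaving out 1 library gave 96 to 331 calls, 64 to 229 higher and 29 to 102 lower. Genes whose response differed between the times were counted among those called at 2 h in the same setting. They numbered 33 of 249, 96 of 1052 with the replicate block over all 15 libraries and 4 of 69 with close pairs averaged. The cause of these shifts was not tested. The other counts stayed within 1.5 times, including limma-voom on recovered reads with median-of-ratios scaling (230), which was chosen after seeing the data. In these settings 0 of the 99 named calls changed direction. Averaging close pairs ended 57 of the 99, the 6 libraries of 2 h alone 39 and the replicate block in the 6 libraries 19. The 19 are each given in the report. The edgeR, DESeq2 and TMM-scaled voom alternatives were not run, since the table holds RPKM. Without the minimum level, 24965 genes were tested and 222 called. At these depths 3 reads in a gene of 1 kb are 0.0801 to 0.123 RPKM.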

Other observations

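The levels of 2 h were also set beside those of solvent at 0 h. Of the 170 genes called higher, 153 had a GR24 4DO mean above the 0 h mean, 74 had a solvent mean at 2 h below it, and 57 had both. Of the 79 genes called lower, 71 had a GR24 4DO mean below the 0 h mean, 26 had a solvent mean above it, and 18 had both. Over all genes tested, 35.8% had a solvent mean at 2 h below that at 0 h. These are counts of means and were not tested.

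Of 5 pairs of called genes that lie next to each other, 4 moved the same way: UMAMIT20 and UMAMIT17 higher, 3752 bases apart on chromosome 4, the SAUR genes AT1G29450 and AT1G29460 lower, 756 bases apart on chromosome 1, and the glutaredoxin genes AT4G15680, AT4G15690 and AT4G15700 lower, 1978 and 2396 bases apart on chromosome 4. AT3G08030 was called lower and its neighbour FRD3 higher, 153 bases apart.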
